A study of Mus musculus with 6 samples.

Results

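The CD300 receptors are a family of surface proteins of myeloid cells, each with 1 extracellular V-type immunoglobulin domain. Their members were taken as all probe sets whose platform gene symbol starts with Cd300, which gave 10 of the 28941 probe sets on the array. Of these, 8 are paired with 1 gene each (Cd300a, Cd300c, Cd300c2, Cd300e, Cd300lb, Cd300ld, Cd300lf and Cd300lg), and the other 2 are each paired with the same 3 genes (Cd300ld3, Cd300ld4 and Cd300ld5), so 11 gene symbols are covered. The naming rule reads no signal, but the family was selected on its known differences in log2 signal between M(CSF2) and M(CSF1) on these same arrays. Its values are therefore given as a description, and nothing is supported with them.

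RNA came from macrophages grown from bone marrow of C57BL/6 mice, a common inbred strain, and was hybridised to Mouse Gene 1.0 ST arrays from Affymetrix. M(CSF2) cells were induced for 7 days with CSF2 (GM-CSF) and M(CSF1) cells for 7 days with CSF1 (M-CSF), and no other allele or agent is named for either group. Each group has 3 arrays labelled as biological replicates. The sources used here do not state that the replicates are different mice, and every error and p-value then measures only how far these samples vary, which may be technical. The cells were sorted, and the marker is not named in the sources used here. A culture grown from marrow stands for macrophages only as far as its markers show, and those are given before the partner genes.

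As background, CD300 receptors read lipids exposed on cell surfaces, such as phosphatidylserine on dying cells, and pass on signals of opposite sign. The inhibitory members, Cd300a and Cd300lf, carry tyrosine motifs in their own cytoplasmic tails that recruit the phosphatases SHP-1 (Ptpn6), SHP-2 (Ptpn11) and SHIP-1 (Inpp5d). The activating members have short tails and depend on the adaptors DAP12 (Tyrobp) or the Fc receptor gamma chain (Fcer1g), which engage the kinase Syk. In mice all genes of the family except Cd300lg lie side by side on 1 stretch of chromosome 11.

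The promoters of the genes on the 2 shared probe sets, and those of Cd300ld, Cd300e and Cd300lf, are shown because Cd300e, Cd300lf and the shared probe sets had the largest differences in signal, and because Cd300ld is a close copy of the genes on the shared probe sets. Each runs 5′ to 3′ on the minus strand, from 250 bases before to 50 after the annotated start (RefSeq, GRCm38.p6). Capitals mark the letters GAGGAAGT, the site bound by the myeloid factor PU.1.
Cd300ld4, chr11:115026884-115027183: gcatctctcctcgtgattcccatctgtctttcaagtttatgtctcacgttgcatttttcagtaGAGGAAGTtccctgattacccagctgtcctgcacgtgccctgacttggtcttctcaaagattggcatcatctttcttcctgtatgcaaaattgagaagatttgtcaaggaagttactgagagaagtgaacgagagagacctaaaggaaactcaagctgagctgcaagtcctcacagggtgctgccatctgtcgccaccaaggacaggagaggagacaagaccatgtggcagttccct
Cd300ld3, chr11:115048281-115048580: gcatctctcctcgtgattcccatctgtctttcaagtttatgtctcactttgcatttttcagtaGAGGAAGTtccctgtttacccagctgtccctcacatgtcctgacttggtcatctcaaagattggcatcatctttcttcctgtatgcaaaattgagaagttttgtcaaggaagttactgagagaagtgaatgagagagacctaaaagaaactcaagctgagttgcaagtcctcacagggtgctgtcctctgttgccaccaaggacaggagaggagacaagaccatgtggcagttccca
Cd300ld, chr11:114989837-114990136: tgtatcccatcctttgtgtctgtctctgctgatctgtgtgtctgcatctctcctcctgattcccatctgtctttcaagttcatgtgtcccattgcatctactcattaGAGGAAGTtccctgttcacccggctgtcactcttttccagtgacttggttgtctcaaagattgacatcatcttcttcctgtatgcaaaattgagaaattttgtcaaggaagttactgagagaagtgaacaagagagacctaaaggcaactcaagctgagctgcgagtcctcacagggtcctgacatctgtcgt
Cd300e, chr11:115061990-115062289: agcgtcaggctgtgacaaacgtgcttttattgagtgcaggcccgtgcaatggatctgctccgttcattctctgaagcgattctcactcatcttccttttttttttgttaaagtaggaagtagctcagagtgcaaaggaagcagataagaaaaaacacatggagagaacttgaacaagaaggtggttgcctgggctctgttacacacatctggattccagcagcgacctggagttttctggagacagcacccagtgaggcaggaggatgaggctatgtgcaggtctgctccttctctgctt
Cd300lf, chr11:115133943-115134242: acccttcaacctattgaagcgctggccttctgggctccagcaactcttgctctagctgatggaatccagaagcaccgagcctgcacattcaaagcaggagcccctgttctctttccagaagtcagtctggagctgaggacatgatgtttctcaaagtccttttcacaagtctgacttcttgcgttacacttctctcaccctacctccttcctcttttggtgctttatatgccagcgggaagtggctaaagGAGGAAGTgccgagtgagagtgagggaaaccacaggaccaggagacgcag

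The Cd300ld5 promoter, at chr11:115037641-115037940, has the same 300 bases as that of Cd300ld4. The Cd300ld3 promoter matches them at 285 of 300 bases (95%). In the Cd300ld promoter, 228 of the 253 bases that align with Cd300ld4 are identical (90.1%). The signal of the 2 shared probe sets may come from any of the 3.

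Over both strands, GAGGAAGT stood in 5 of the 10 CD300 promoters in the RefSeq table (Cd300ld, Cd300ld3, Cd300ld4, Cd300ld5 and Cd300lf), against 3.2% of all 32851 promoters of that length. As 4 of those 5 are copies of one another, they are not independent matches. The shorter ETS core AGGAAGT, which is contained in that site, was also present in Cd300e and Cd300c2, so 7 of 10 held it (9.35% of all promoters). The genes with the site include Cd300lf, higher in M(CSF2), and Cd300ld, lower in M(CSF2). They also include Cd300ld3, Cd300ld4 and Cd300ld5, whose shared probe sets were lower in M(CSF2). A STAT-type match, TTCNNNGAA, was in the Cd300e promoter alone (8.3% of all promoters). The AP-1 letters TGANTCA (7.81%), the ETS-IRF composite element (2.72%) and the MAF-type letters TGCTGAC (4.67%) had no match in these windows. A match is only a run of letters, and no binding was measured.

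Signal is given on the log2 scale of the deposited table, and differences are M(CSF2) minus M(CSF1), with the standard error (SE) and 95% interval of a limma fit over all probe sets. Folds are 2 raised to that difference, and in dim genes they can be smaller than the true change in RNA. Levels of different probe sets are not comparable, so each CD300 probe set is read only between groups. The sums over marker genes given below mix such levels. A highest mean named there tells only which probe set weighs most in its sum. In RNA from bulk cultures, fewer cells of a type and less RNA per cell cannot be told apart. As a guide to dim signal, the 95th percentile of 1035 probe sets of olfactory receptor genes was 3.38. All 10 CD300 probe sets lay above it on each of the 6 arrays. So did the B cell marker Pax5 and the T cell marker Cd3e, and the lowest array median was 3.91. A value above that level therefore does not show that a gene is expressed. The lower group of Cd300e, M(CSF2) with a mean of 4.46, and that of Cd300lf, M(CSF1) with a mean of 4.22, may lie near background.

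Both inhibitory receptors had more signal in M(CSF2). Cd300lf, which binds phosphatidylserine and ceramide (probe set 10392845), had 7.07, 7.02 and 6.98 in M(CSF2), against 4.12, 4.06 and 4.48 in M(CSF1). The 3 M(CSF2) arrays lay close together and far above all M(CSF1) arrays. The difference was 2.80 (SE 0.12), a 6.97-fold higher signal in M(CSF2) with a 95% interval of 5.77 to 8.42. Cd300a, which binds phosphatidylserine and phosphatidylethanolamine (probe set 10382438), had 5.73, 5.51 and 5.54 in M(CSF2), against 5.14, 5.06 and 4.92 in M(CSF1). The groups did not overlap here either, but the difference between their means was small. It came to 0.55 (SE 0.09), or 1.47-fold (95% interval 1.26 to 1.70).

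The activating receptors went both ways. Cd300lb, a DAP12-coupled receptor also known as CLM-7 (probe set 10392796), had 7.51, 7.44 and 7.50 in M(CSF2), against 5.71, 5.73 and 5.45 in M(CSF1). All M(CSF2) arrays were above all M(CSF1) arrays, by 1.85 on average (SE 0.09), a 3.61-fold difference (95% interval 3.12 to 4.19). Cd300c2, known as MAIR-II and able to pair with DAP12 (probe set 10392815), had 8.52, 8.53 and 8.48 in M(CSF2), against 7.21, 7.11 and 7.06 in M(CSF1). The groups were again clear of each other, with a difference of 1.38 (SE 0.07) or 2.61-fold (95% interval 2.34 to 2.91).

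Cd300c, whose human counterpart is an activating receptor (probe set 10392803), had 4.80, 4.89 and 4.80 in M(CSF2), against 4.11, 4.43 and 4.59 in M(CSF1). The groups did not overlap, but the spread within M(CSF1) was larger than the gap to M(CSF2). The difference was 0.45 (SE 0.12), 1.37-fold (95% interval 1.12 to 1.67).

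Cd300e had the largest difference of the 10 probe sets, and it was lower in M(CSF2). It encodes CLM-2, whose human counterpart is a DAP12-coupled receptor of monocytes. Its probe set (10392839) had 4.11, 5.08 and 4.17 in M(CSF2), against 10.12, 10.09 and 9.90 in M(CSF1). M(CSF2) replicate 2 stood above the other M(CSF2) arrays and still far below every M(CSF1) array. The difference was -5.58 (SE 0.25), so the signal was 47.8-fold lower in M(CSF2) (95% interval 31.9 to 71.6). Without M(CSF2) replicate 2 it was -5.89.

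The 2 probe sets shared by Cd300ld3, Cd300ld4 and Cd300ld5 gave nearly equal differences, both lower in M(CSF2). The first of them (10392825) had 5.92, 6.21 and 6.11 in M(CSF2), against 9.82, 9.74 and 9.62 in M(CSF1). The second (10392834) had 6.60, 6.88 and 6.70 in M(CSF2), against 10.30, 10.31 and 10.20 in M(CSF1). In both, the groups were more than 3 apart on the log2 scale, and M(CSF2) replicate 2 was the highest of its group, as for Cd300e. The first difference was -3.65 (SE 0.10), 12.5-fold lower (95% interval 10.7 to 14.7). The second was -3.54 (SE 0.09), 11.6-fold lower (95% interval 10.1 to 13.5). Both probe sets list the same genes, so they are not 2 independent measurements of the family, and which of the 3 genes gave the signal cannot be told from them.

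Cd300ld, which pairs with the Fc receptor gamma chain (probe set 10392808), was lower too but by much less. It had 7.68, 7.74 and 8.18 in M(CSF2), against 8.68, 8.91 and 8.96 in M(CSF1). The groups did not overlap, and M(CSF2) replicate 3 came closest to M(CSF1). The difference was -0.98 (SE 0.15), 1.98-fold lower in M(CSF2) (95% interval 1.56 to 2.51). Its interval on the log2 scale, -1.33 to -0.64, lies apart from those of the 2 shared probe sets, -3.87 to -3.42 and -3.75 to -3.33, although the promoters are close copies. Whether probes of Cd300ld also match its copies was not tested.

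Cd300lg, known as nepmucin, is a vascular endothelial member that serves lymphocyte adhesion. Its probe set (10381514) had 4.70, 4.54 and 4.42 in M(CSF2), against 4.53, 4.56 and 4.54 in M(CSF1). The groups overlapped, and the difference of 0.01 (SE 0.08) had a 95% interval of -0.19 to 0.20, which leaves room for a difference of up to 1.15-fold.

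**Figure D1:**
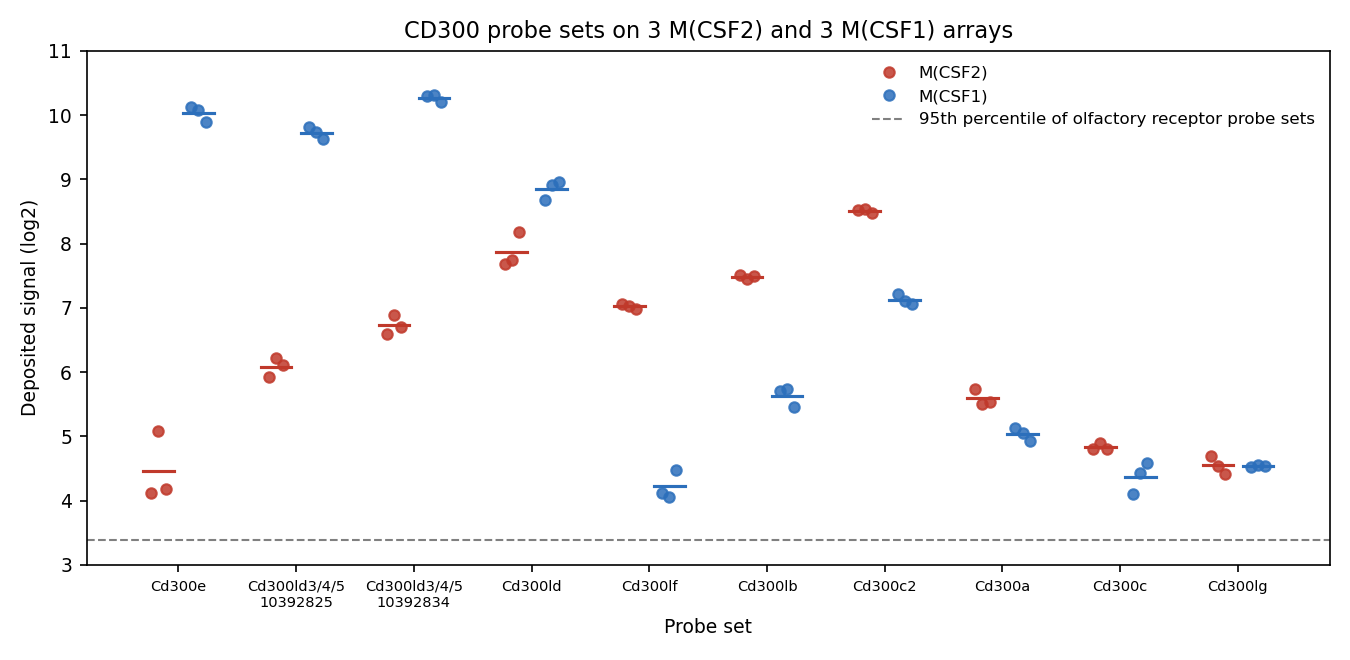
Deposited signal (log2) of the 10 CD300 probe sets, with 1 point per array, M(CSF2) in red and M(CSF1) in blue, and a bar at each group mean (n = 3 arrays each). The dashed line is the 95th percentile of olfactory receptor probe sets, 3.38; Cd300e and both Cd300ld3/4/5 probe sets are lower in M(CSF2), Cd300lf, Cd300lb and Cd300c2 are higher, and only the Cd300lg groups overlap.

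Of the 10 probe sets, 9 passed the limma threshold, an adjusted p under 0.05 over all probe sets, with 5 higher and 4 lower in M(CSF2). Of all probe sets, 24.7% passed, 10.3% higher and 14.4% lower. The groups did not overlap in 9 of 10 CD300 probe sets, against 36.5% of all probe sets. At least 2-fold differences were present in 6 of them, 3 in each direction, against 6.6% of all probe sets. The median size of the difference, regardless of sign, was 1.62 for the 10 and 0.14 for all probe sets, and the median signed difference was 0.23 for the 10 and 0.03 for all. Because the family was put forward with this comparison known, nothing is read from these shares. Cd300c lost its call without M(CSF1) replicate 2 (difference 0.48) and without M(CSF2) replicate 1 (0.47), replicate 2 (0.42) or replicate 3 (0.47).

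In the order of the genes along chromosome 11, genes with higher and lower signal were interspersed. Starting from Cd300a, the first 3 measured genes (Cd300a, Cd300lb and Cd300c) were higher in M(CSF2), Cd300ld was lower and Cd300c2 higher. The probe sets shared by Cd300ld4, Cd300ld5 and Cd300ld3, and that of Cd300e, which follow, were lower. Cd300lf at the far end was higher. Cd300ld2, which overlaps Cd300ld4, has no probe set in the annotation used here and so no value. Cd300c2 and Cd300ld4 overlap in the RefSeq table. Cd300c2 was higher, and Cd300ld4 has no value of its own, only the lower signal of the probe sets it shares with Cd300ld5 and Cd300ld3. Rab37, a secretory Rab GTPase gene that overlaps Cd300lf and was chosen after its value was seen, gave 0.01 (95% interval -0.26 to 0.27, limma adjusted p = 0.982), with means of 3.74 in M(CSF2) and 3.73 in M(CSF1).

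The genes on either side of the cluster were taken as the nearest 10 with a probe set of their own on each side. Of these 20, 2 were called higher and 2 lower in M(CSF2), with a median difference of 0.08. Among all 19938 genes represented by their brightest single-gene probe set, 26.8% were called, 11.6% higher and 15.3% lower. The 2 that rose adjoin the cluster: Gprc5c, an orphan receptor gene, rose by 0.81 (adjusted p = 0.0051) and Slc9a3r1, a scaffold protein gene, by 0.72 (adjusted p = 0.003). The ribosomal protein gene Rpl38 fell by 0.61 (adjusted p = 0.0016) and Tmem104 fell by 0.45 (adjusted p = 0.0067). The Rpl38 probe set, 10548976, is numbered far from those of the other neighbours, and where its probes match was not tested. None of these 20 genes reached a 2-fold difference. Around Cd300lg, which lies apart on the same chromosome, 5 of 20 neighbours were higher and 2 lower, with a median of 0.20. Nags, which makes the activator of the urea cycle, rose by 1.62 (adjusted p = 2.2e-05) and the scaffold gene Mpp2 by 1.31 (adjusted p = 0.0014). Mpp2 lay below the olfactory receptor level on 2 of 3 M(CSF1) arrays, so its difference is measured against a signal near that level. Etv4 (0.59), G6pc3 (0.49) and Dusp3 (0.47) were also called higher, and Tmem106a (-0.68) and Hrob (-0.65) lower.

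**Figure D2:**
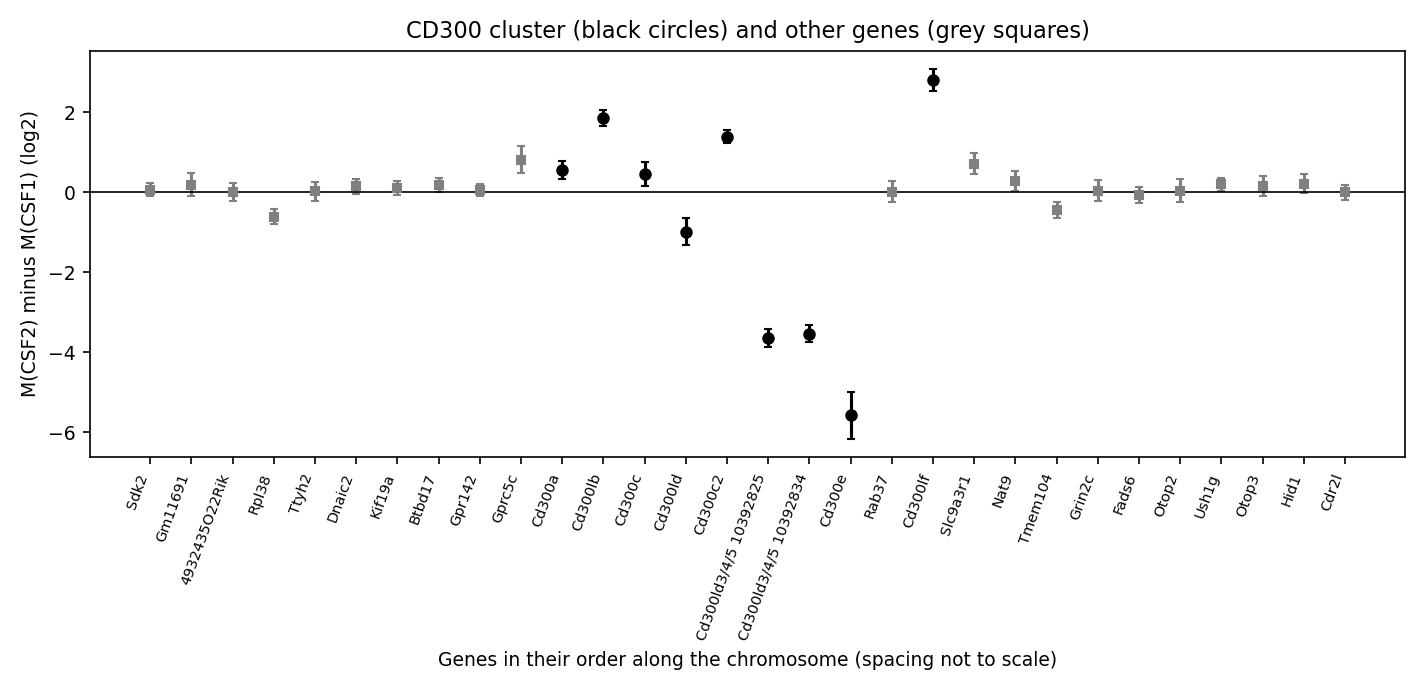
Log2 difference in signal between M(CSF2) and M(CSF1), as M(CSF2) minus M(CSF1), for the genes of the CD300 cluster and the genes beside it in their order along the chromosome, with 95% limma intervals (n = 3 arrays each). CD300 probe sets (black circles) range from -5.58 to 2.80, and all other genes (grey squares) lie between -0.61 and 0.81.

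The label of the cells was set against marker genes. All 8 macrophage markers (Adgre1, Csf1r, Fcgr1, Mertk, Cd68, Itgam, Cd14 and Lyz2) lay above the olfactory receptor level on arrays of both groups, and the log2 of their summed signal was 13.88 to 13.97 in M(CSF2) and 13.92 to 13.97 in M(CSF1). Behind these sums, 6 of the 8 were called, in both directions. Among all genes 26.8% were called, 11.6% higher and 15.3% lower. Cd14 (1.71), Cd68 (0.89) and Csf1r (0.60) were higher in M(CSF2), Fcgr1 (-1.23), Adgre1 (-1.18) and Lyz2 (-0.48) were lower, and Mertk (-0.39) and Itgam (-0.19) were not called. Of 10 neutrophil markers, 3 were called higher in M(CSF2), beside 11.6% of all genes. The log2 sum was 11.25 to 11.47 in M(CSF2) and 7.76 to 8.25 in M(CSF1). Such a sum follows its brightest probe sets. Mmp8 had the highest mean in both groups, 11.04 in M(CSF2) and 6.60 in M(CSF1). The 3 called were Mmp8 (4.44), S100a8 (2.37) and Ltf. S100a9 (-0.34), Elane (-0.06), Mpo (0.05) and Camp (0.60) were not called. Ly6g, Ngp, Ltf and Cxcr2 lay below the olfactory receptor level on every array. Of 8 mast cell and basophil markers, 3 were called higher (Hdc, Gata2 and Kit), beside 11.6% of all genes. The log2 sums of the 8 were 8.96 to 9.19 in M(CSF2) and 6.31 to 6.64 in M(CSF1). Hdc had the highest M(CSF2) mean of the 8, 8.27, against 3.85 in M(CSF1). Cpa3, Mcpt4, Mcpt8, Fcer1a and Ms4a2 lay below the olfactory receptor level throughout.

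Of 4 endothelial markers, Cdh5 and Kdr were called higher and Pecam1 lower, beside 11.6% higher and 15.3% lower among all genes. The log2 sums were 8.22 to 8.55 in M(CSF2) and 6.66 to 6.96 in M(CSF1). Kdr had the highest M(CSF2) mean of the 4, 8.07, against 4.54 in M(CSF1). Tek lay below the olfactory receptor level. Log2 sums of 5 plasmacytoid dendritic cell markers were 8.75 to 8.79 in M(CSF2) and 9.10 to 9.38 in M(CSF1), with Bst2 called lower. Bst2 had the highest mean of the 5 in both groups, 8.42 in M(CSF2) and 8.96 in M(CSF1). For the 3 measured B cell markers the log2 sums were 5.17 to 5.27 in M(CSF2) and 5.06 to 5.55 in M(CSF1). For 4 natural killer and T cell markers they were 5.22 to 5.27 in M(CSF2) and 5.15 to 5.23 in M(CSF1). The part of other cell types in the CD300 differences was not tested.

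Of the genes that CD300 receptors signal through, more were called lower than higher in M(CSF2). Of 18 measured partners, 2 were called higher, 10 lower and 6 not called, with a median difference of -0.45. Among all 19938 genes 26.8% were called, 11.6% higher and 15.3% lower, with 1 probe set for each gene. Fcer1g, the Fc receptor gamma chain, had means of 11.66 ± 0.06 in M(CSF2) and 11.97 ± 0.05 in M(CSF1) (SD, n = 3 arrays each), a fall of 0.30 (limma adjusted p = 0.014). Its call ended without M(CSF1) replicate 2 (-0.28, adjusted p = 0.0584) and with the replicate number as a block (-0.30, adjusted p = 0.0531). Tyrobp, which encodes DAP12, gave 9.72 ± 0.09 in M(CSF2) and 9.92 ± 0.06 in M(CSF1) (limma adjusted p = 0.111), and its difference had a 95% lower limit of -0.37. Hcst, the adaptor DAP10, rose by 1.42 (adjusted p = 4.7e-05).

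Of the phosphatases that inhibitory CD300 receptors recruit, Ptpn6 fell by 0.93 (SE 0.07, adjusted p = 8.8e-05) and Inpp5d by 1.16 (SE 0.11, adjusted p = 0.00029). Ptpn11 gave -0.35 (adjusted p = 0.0813). Both inhibitory receptors had more signal in the group where Ptpn6 and Inpp5d had less. The regulatory PI3-kinase subunit Pik3r1 fell by 0.98 (adjusted p = 0.0013), and Il4ra, a receptor chain that Cd300lf is known to associate with, fell by 0.55 (adjusted p = 0.005).

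Among kinases and their substrates, Src rose by 1.70 (adjusted p = 8.3e-05) and the related kinase Fgr fell by 1.03 (adjusted p = 0.00018). Vav1, a guanine nucleotide exchange factor downstream of Syk, fell by 1.23 (adjusted p = 3.6e-05), Plcg2 by 0.62 (adjusted p = 0.0024) and Btk by 0.55 (adjusted p = 0.0091). Syk itself gave -0.18 (adjusted p = 0.3). The ubiquitin ligase Cblb fell by 0.58 (adjusted p = 0.011). Its call ended without M(CSF1) replicate 1 (-0.52, adjusted p = 0.0563) or replicate 2 (-0.55, adjusted p = 0.0599). Leaving out M(CSF2) replicate 1 (-0.54, adjusted p = 0.0623) or replicate 2 (-0.51, adjusted p = 0.053) ended it too. Grb2 (-0.33, adjusted p = 0.0996) and Lat2 (-0.16, adjusted p = 0.254) did not pass the threshold, nor did Dok1 (adjusted p = 0.994).

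Other proteins that recognise dying cells or their lipids went both ways, as the CD300 receptors did. Of 18 listed, 6 were called higher, 3 lower and 9 not called, with a median of 0.22, beside 11.6% higher and 15.3% lower among all genes (26.8% called). The bridging protein gene Mfge8 rose by 5.31 (adjusted p = 7e-06), the receptor gene Havcr2 (TIM-3) by 4.31 (adjusted p = 4.6e-06), the receptor kinase genes Axl by 3.36 (adjusted p = 0.00018) and Tyro3 by 0.91 (adjusted p = 0.00048), and the lipid receptor gene Trem2 by 2.87 (adjusted p = 4e-05). Gas6 (-1.74, adjusted p = 0.00035) and Pros1 (-1.55, adjusted p = 0.0013), which encode ligands of the Tyro3, Axl and Mertk kinase family, and the scavenger receptor gene Stab1 (-1.61, adjusted p = 1e-04) fell. Mertk gave -0.39 (adjusted p = 0.0776), and Timd4 lay below the olfactory receptor level on every array. Havcr1, at that level on all M(CSF1) arrays, was called higher (adjusted p = 0.015). Measured from its M(CSF2) mean to that level it was 1.16-fold higher, and the lower limit of its limma interval was 1.15-fold. Havcr1 was not called without M(CSF1) replicate 2 (adjusted p = 0.0715) or replicate 3 (adjusted p = 0.0529).

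The receptors nearest to CD300 by their immunoglobulin fold, the TREM and polymeric immunoglobulin receptor families, had 4 of 9 measured members called higher and 1 lower, with a median of 0.20, beside 11.6% higher and 15.3% lower among all genes (26.8% called). The 4 include Trem2, given above, and Treml1, whose call did not hold in every alternative. Trem1, a DAP12-coupled amplifier of inflammation, averaged 8.30 ± 0.24 in M(CSF2) and 3.27 ± 0.11 in M(CSF1) (SD, n = 3 arrays each). As its M(CSF1) arrays all lay at the olfactory receptor level, its fold was measured from the M(CSF2) mean to that level. It was 30.3-fold higher (limma adjusted p = 1.2e-06). This fold carries no sampling error, and the lower limit of the limma interval was 26.6-fold. Treml2 rose by 3.22 (adjusted p = 1.9e-05). Treml4 fell to the olfactory receptor level in M(CSF2), 2.30-fold lower from its M(CSF1) mean to that level (adjusted p = 0.00026). The lower limit of its limma interval was 1.93-fold. Treml1 was called higher by 0.37 (adjusted p = 0.0497). That call ended with an intensity trend (0.37, adjusted p = 0.0597), with median centring (0.33, adjusted p = 0.0636), and without M(CSF1) replicate 1 (0.29, adjusted p = 0.154) or replicate 3 (0.37, adjusted p = 0.114). It also ended without M(CSF2) replicate 2 (0.32, adjusted p = 0.161) or replicate 3 (0.34, adjusted p = 0.143).

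**Figure D3:**
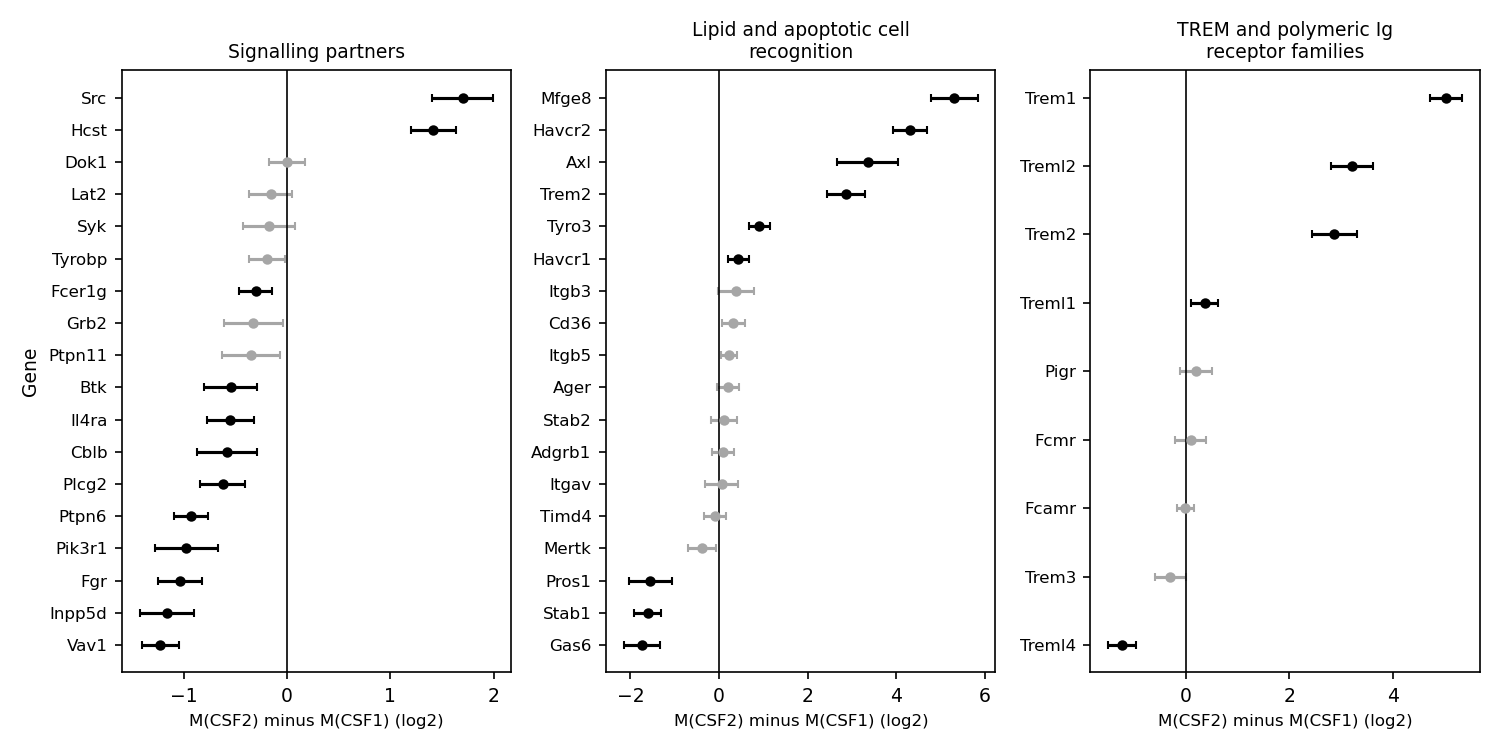
Log2 difference in signal, as M(CSF2) minus M(CSF1), for the genes of the 3 lists set beside the CD300 receptors, with 95% limma intervals (n = 3 arrays each). Black points passed the limma threshold and grey ones did not; 10 of 18 measured signalling partners are black and left of 0, and Hcst (1.42) and Src (1.70) are black and right of it.

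The genes whose pattern was most like those of Cd300lf and Cd300e were found by the Euclidean distance between deviations from each gene's own mean over the 6 arrays, among 20326 probe sets of single protein-coding genes. Nearest to Cd300lf were the MHC class II gene H2-Eb1 (distance 0.34), the organic anion transporter gene Slco4a1 (0.39), the antiproliferative gene Btg1 (0.40), the metalloproteinase gene Mmp25 (0.41) and the collagen-binding integrin gene Itga1 (0.42). Their differences in signal ran from 2.71 for Btg1 to 2.88 for Mmp25. Nearest to Cd300e were the complement genes C1qc (0.83) and C1qb (0.87), Tmem176b (0.86), Tmem176a (0.89) and Cd55 (0.92). Tmem176b had 3.80, 4.87 and 3.84 in M(CSF2), against 10.59, 10.41 and 10.32 in M(CSF1). It shared with Cd300e the higher value on M(CSF2) replicate 2, which C1qb, C1qc, Tmem176a and Cd55 did not show. With 2 groups far apart, such a distance mostly reads the size of the group difference.

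**Figure D4:**
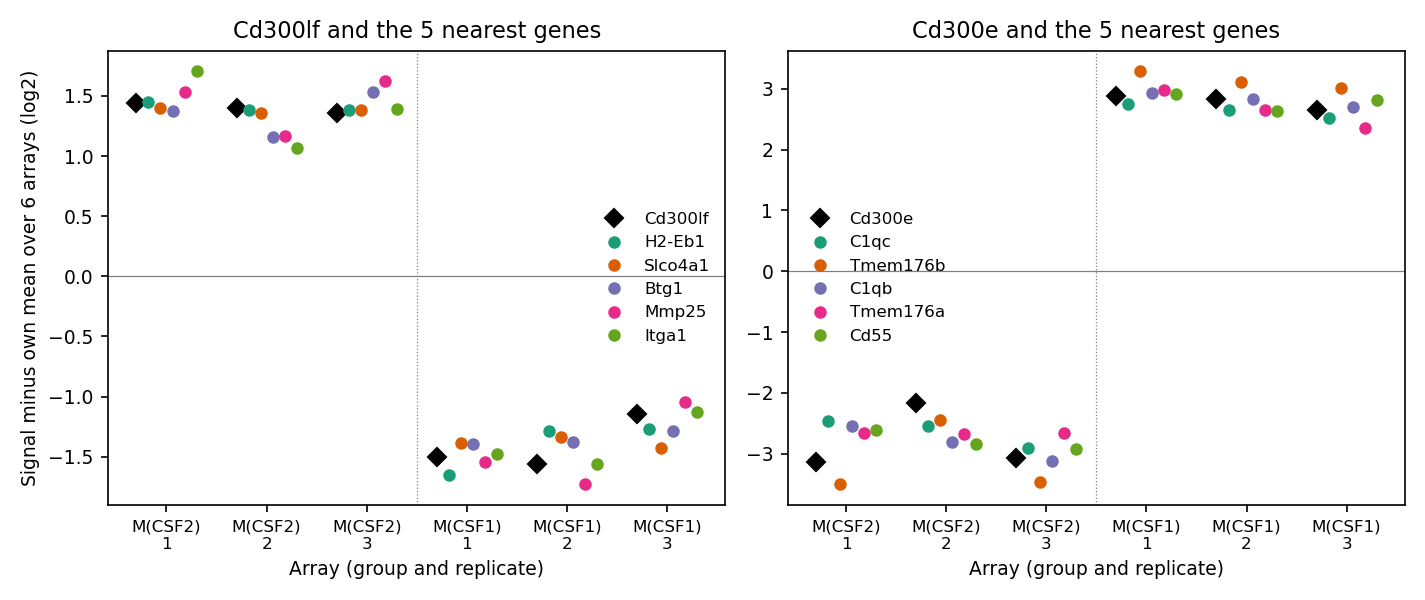
Signal of Cd300lf and Cd300e (black diamonds) and of the 5 genes nearest to each (coloured circles), as the deviation from each gene's own mean over 6 arrays on the log2 scale, for every M(CSF2) and M(CSF1) array. On M(CSF2) replicate 2, Cd300e and Tmem176b lie above their own values on the other M(CSF2) arrays.

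Over the whole table, arrays of 1 group correlated at 0.995 at the lowest and arrays of different groups at 0.959 at the highest. The first principal component of gene-centred values held 87.2% of the variance. Array medians lay between 3.91 and 4.00.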

How the data were processed

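The authors' deposited table holds 1 log2 value per probe set and array. Base 2 was taken from the range of the values, 1.48 to 13.27, since no source states it. The submitters' processing notes name MAS5, and background correction, normalization and summary steps are not given in the sources used here. Gene names come from the array platform's annotation, in which 21789 probe sets have 1 gene, 1621 several and 5531 are unnamed here.

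A linear model with moderated variances (limma 3.58.1, R 4.3.3) was fitted to all 28941 probe sets without a filter, and its 2-sided p-values were adjusted by Benjamini-Hochberg over all of them. Every adjusted p comes from this fit. Genes outside the family are represented by their brightest single-gene probe set. In a simulation over 28941 probe sets with 3 arrays per group, only 50 probe sets were changed at each size. The fit recovered 42% of changes of 0.5, 86% of changes of 1 and 100% of changes of 2 and of 4 on the log2 scale. Of its 171 calls, 7 were false. In the data 7139 probe sets were called, so the adjusted threshold was less strict there. These shares therefore do not give the recovery in the data. The number of arrays limits the precision. Promoters were compared with Biopython 1.88 by global alignment with free end gaps.

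The members, lists, motifs and tests were chosen with earlier results of these data known. Every CD300 probe set is named. Called members of the lists and of the neighbouring genes are named, and some that were not called. Alternatives were quantile normalization, median centring, a filter on dim probe sets, an intensity trend, robust variance, the replicate block, 1 probe set per gene and leaving out each array. Only GRCm38.p6 promoter coordinates are printed, since the table has none.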

Additional observations from a re-analysis of the deposited data

How the results depend on the processing

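Under the 13 alternatives no CD300 difference that passed the threshold changed sign, and the number of CD300 probe sets called ran from 7 to 9. The 7 came with 1 probe set per gene, where only 8 CD300 probe sets enter. In the other alternatives 8 or 9 were called. Of the 9 called, Cd300c alone lost its call, in 4 of 13 alternatives, each with 1 array left out. The median size of the CD300 differences, 1.62, became 1.18 with 1 probe set per gene, which by construction leaves out the 2 shared probe sets. Cd300c2 moved by more than its replicate spread under 1 alternative, to 1.46 after quantile normalization. Cd300e ranged from -5.89 to -5.41, and Cd300lf from 2.72 to 2.93. Cd300lg ranged from -0.07 to 0.07. Calls over all probe sets ran from 5484 to 7579, against 7139. Called signalling partners ran from 10 to 13, lipid and apoptotic cell receptors from 8 to 12, TREM and polymeric immunoglobulin receptor genes from 4 to 5, and chromosomal neighbours from 11 to 13. The labels give both groups replicate numbers 1 to 3, but deviations of same-numbered arrays correlated at -0.01, -0.03 and -0.24. No array correlated best with its own number. These values gave no sign of pairing by number, but with 3 arrays per group they cannot exclude it. With the replicate block, 6407 of all probe sets and 9 CD300 probe sets were called. Probes shared among the Cd300ld genes, and a table without detection calls, limit what low signals show.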
